A study of Mus musculus with 58 samples.

Results

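The Gimap genes encode a family of GTP-binding proteins that sit in one cluster of mouse chromosome 6, and their RNA was followed here through every RNA-seq library of a study of caloric restriction (CR) in aged hematopoietic stem cells (HSCs). The 8 members were taken by symbol from a list (Gimap1, Gimap3, Gimap4, Gimap5, Gimap6, Gimap7, Gimap8 and Gimap9), and all 8 were found among the 55376 genes of the count tables. One further symbol that starts with Gimap, Gimap1os, is an RNA transcribed from the opposite strand at Gimap1 and was kept apart. The family was chosen because its members were known to move together under restriction in these libraries. The diet comparisons below therefore only describe the members: how many were called or passed an unadjusted threshold is counted, no p-value of a single member is printed, and nothing is supported with these counts. The knockdown and accessibility comparisons are tested.

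HSCs are the rare bone marrow cells from which all blood lineages derive, and wild-type C57BL/6 male mice gave them by sorting of the LSK gate (no lineage markers, Sca-1 and c-Kit present) for CD34-, Flk2- and CD150+ cells. Old mice of 24 to 26 months had eaten ad libitum (OAL, 4 libraries), had lived on 40% CR from an age of 3 to 4 months (OCR, 4 libraries), or had returned to free feeding for 4 weeks after lifelong CR (OCRRF, 2 libraries). Mice that entered the diets at 3 to 4 months had eaten ad libitum (YAL, 4 libraries), had undergone 4 weeks of CR, at 20% in the first week and 40% after it (YCR, 4 libraries), or had been refed for 4 weeks after that regimen (YCRRF, 4 libraries). A second experiment used aged HSCs that were transduced with lentiviral hairpins and transplanted into lethally irradiated young female CD45.1 recipients, from which the donor-derived CD48-, CD150+, CD45.2+ cells were sorted again by their fluorescent marker. It held a Kdr knockdown (4 libraries) beside a scramble hairpin with GFP (2 libraries), and a double knockdown of Kdr and Bmpr1a beside a double scramble (2 libraries). The double knockdown used 1 Kdr hairpin with either of 2 Bmpr1a hairpins, in 2 libraries each. Kdr encodes a VEGF receptor and Bmpr1a a BMP receptor. ATAC-seq of OCR (4 libraries) and OCRRF (2 libraries), H3K4me3 and H3K27me3 ChIP-seq of OCR (2 libraries each), and PU.1 ChIP-seq of OAL, OCR and OCRRF (2 libraries each) were used for the chromatin of the cluster. The study counts the old RNA libraries of a group as mice, while the sample labels name no mouse for a library.

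GIMAP proteins (GTPases of immunity-associated proteins) share a GTP-binding domain and are largely anchored to, or associated with, internal membranes. They are best known from lymphocytes, where they sustain survival and development, and several of them have been tied to autophagy, lysosomes, mitochondria and Bcl-2 family proteins. Gimap5 is a lysosomal membrane protein that T cells and HSCs need to stay quiescent and alive, Gimap6 takes part in autophagy through GABARAP family proteins, Gimap1 is required by mature B and T cells, and Gimap3 sits at the outer mitochondrial membrane.

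In mm10 the cluster ran from chr6:48647234 to chr6:48770851, in the order Gimap8, Gimap9, Gimap4, Gimap6, Gimap7, Gimap1, Gimap5 and Gimap3. All are protein-coding genes. Gimap6 and Gimap3 lie on the minus strand and the other 6 on the plus strand. Reads of some members could not be assigned with certainty. Exons of Gimap1 and Gimap1os overlap, which leaves 64.0% of the exon bases of Gimap1 and 64.3% of those of Gimap1os to 1 gene alone, and the strand setting of the counting was not given in the sources used here. A read-through transcript, Gm28053, shares exon bases with Gimap7, Gimap1, Gimap1os and Gimap5, and its own level was between 0.348 and 5.86 CPM (counts scaled to equal library totals) over all RNA libraries. Among the spliced transcripts of the members, 50-base windows were shared only by Gimap5 and Gimap3, for 4.53% of the windows of Gimap5 and 7.52% of those of Gimap3.

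The bases before the start site are shown for 4 members, from RefSeq (GRCm38.p6, the mm10 assembly), because they span the range of behaviour described below. Gimap6 and Gimap1 were the most abundant members per kilobase and carried PU.1 peaks at their starts, Gimap3 differed most between diets, and Gimap7 was the least abundant. Each line gives the 250 bases before the start, 5′ to 3′ along the gene, with capitals at AGGAA or, for the other strand, TTCCT, the core of sites for ETS factors such as PU.1.
Gimap6, chr6:48708245-48708494, minus strand: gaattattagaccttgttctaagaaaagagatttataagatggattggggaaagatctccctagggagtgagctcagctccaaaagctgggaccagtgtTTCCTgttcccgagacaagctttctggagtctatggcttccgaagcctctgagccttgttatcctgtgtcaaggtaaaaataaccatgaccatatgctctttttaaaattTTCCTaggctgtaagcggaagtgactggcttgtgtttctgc
Gimap1, chr6:48738797-48739046, plus strand: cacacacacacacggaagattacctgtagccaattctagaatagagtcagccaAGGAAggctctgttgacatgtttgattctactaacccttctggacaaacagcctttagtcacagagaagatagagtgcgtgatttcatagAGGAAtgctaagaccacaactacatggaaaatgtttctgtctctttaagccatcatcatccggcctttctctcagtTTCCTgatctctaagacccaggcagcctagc
Gimap3, chr6:48770852-48771101, minus strand: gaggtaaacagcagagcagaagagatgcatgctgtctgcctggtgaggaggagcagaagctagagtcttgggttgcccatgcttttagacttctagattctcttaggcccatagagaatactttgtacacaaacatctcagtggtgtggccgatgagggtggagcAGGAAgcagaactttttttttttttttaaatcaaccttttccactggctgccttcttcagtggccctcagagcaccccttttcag
Gimap7, chr6:48718371-48718620, plus strand: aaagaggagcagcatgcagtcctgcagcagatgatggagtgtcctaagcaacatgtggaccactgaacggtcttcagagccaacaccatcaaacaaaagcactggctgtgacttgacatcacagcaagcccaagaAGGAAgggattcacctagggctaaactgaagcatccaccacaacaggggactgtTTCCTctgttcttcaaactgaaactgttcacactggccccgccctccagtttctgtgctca

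The letters AGGAA occurred on either strand in 8 of the 9 promoter entries of the members (Gimap8 has 2 start sites), and in 60.3% of 32851 mouse promoters of the same length. The longer GAGGAA, every match of which is also a match of AGGAA, occurred in 3 of 9 (Gimap4, Gimap7 and Gimap1) and in 23.3% of all promoters. The RUNX core TGTGGT was in 3 of 9 (14.1% of all), the GATA core AGATAA in 0 of 9 (9.99% of all), the GC box GGGCGG in 2 of 9 (32.7% of all) and the TATA box TATAAA in 1 of 9 (12.4% of all). The promoters held few CpG dinucleotides, between 1 in Gimap3 and 8 in Gimap9, and their GC content ran from 43.6% in Gimap6 to 61.2% in Gimap9.

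The diet libraries held 11102898 to 36579392 counted reads, and the transplant libraries 35657999 to 44780217. The old libraries detected 42071 to 46646 genes and the young libraries 22209 to 33496, and whether they were prepared together is not given in the sources used here, so that age and a difference in preparation cannot be told apart. One library, YCRRF replicate 3, stood apart from its group: its counts differed from those of the other YCRRF libraries with a chi-square per gene of 153 to 336, against 28.4 to 56.4 among the other pairs of that group. The 8 HSC markers were high in all groups, summing to 3502 to 4990 CPM in the diet libraries and 2579 to 3499 CPM in the transplant libraries. Because bulk RNA was measured, fewer cells that carry a transcript and less of it per cell cannot be told apart. All levels below are CPM scaled by TMM factors, a normalisation that corrects for library composition, separately for the diet and the transplant libraries.

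Counted per kilobase of exon, the family was dominated by Gimap6 and Gimap1 in every diet group. Gimap6 averaged 67.9 CPM per kb in OAL, 46.8 in OCR and 133.6 in YAL, and Gimap1 averaged 59.2, 43.8 and 101.2 CPM per kb in those groups. They made up 62.5% to 66.4% of the summed family level per kb in the 6 diet groups. Gimap5, Gimap9 and Gimap8 formed a middle tier of 10.9 to 38.7 CPM per kb over the diet groups, Gimap4 and Gimap3 lay lower at 1.57 to 19.8, and Gimap7 was lowest at 0.444 to 1.85 CPM per kb.

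Gimap6, the autophagy-linked member, stood at 196, 236, 246 and 271 CPM in OAL and at 143, 154, 166 and 192 CPM in OCR. The highest OCR library was below the lowest OAL library. After refeeding it stood at 303 and 223 CPM, both above all OCR libraries and within or above the OAL range. In the young mice it was 454, 472, 455 and 487 CPM in YAL, 254, 246, 242 and 298 CPM in YCR and 416, 451, 489 and 503 CPM in YCRRF. The YCR libraries lay below every library of the other young groups, and the YAL and YCRRF libraries overlapped.

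Gimap5, the lysosomal member, was the most even in OAL, at 105, 104, 102 and 106 CPM, and stood at 54.6, 62.3, 68.2 and 67.2 CPM in OCR with no overlap. In OCRRF it was 117 and 92.9 CPM, on both sides of the OAL libraries. Short-term restriction gave 69.1, 106, 90.9 and 92.3 CPM in YCR beside 141, 139, 165 and 160.4 CPM in YAL, again without overlap, and YCRRF spread widely over 109, 129.8, 179.6 and 105 CPM, overlapping both. For this gene the YCR libraries reached down nearly to those of OCR, the highest of which was 68.2 CPM.

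Gimap1, needed by mature lymphocytes, stood at 168, 173, 204 and 182 CPM in OAL, 131, 131, 128 and 149 CPM in OCR and 197 and 177 CPM in OCRRF. The OCR libraries lay below all others of the old mice. It was 298, 328, 302 and 316 CPM in YAL, 230.4, 234, 225 and 247 CPM in YCR and 289, 321, 306 and 294 CPM in YCRRF, with YCR below both other groups. Its opposite-strand neighbour Gimap1os was also lower in both restricted groups, with means of 61.2 CPM in OAL and 44.1 CPM in OCR, and of 109.9 CPM in YAL, 79.8 CPM in YCR and 110.9 CPM in YCRRF. The overlap of their exons means that these are not separate measurements.

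Gimap3, the mitochondrial member, had the widest range in proportion to its level. It was 7.12, 6.08, 11.4 and 7.51 CPM in OAL, 2.50, 3.33, 5.42 and 4.97 CPM in OCR and 13.1 and 6.77 CPM in OCRRF. In the young mice it was 35.8, 35.2, 37.9 and 39.0 CPM in YAL, 20.6, 8.35, 16.8 and 19.7 CPM in YCR and 29.9, 28.1, 47.8 and 29.7 CPM in YCRRF. All libraries of each restricted group were below all libraries of its ad libitum group, and all 3 young groups except 1 YCR library lay above every old ad libitum library.

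Gimap4, a GTPase of the T cell lineage, stood at 11.2, 10.0, 12.9 and 17.8 CPM in OAL, 4.75, 7.61, 9.94 and 11.1 CPM in OCR and 25.0 and 13.6 CPM in OCRRF, and the first pair of groups overlapped. In the young groups it was 37.1, 40.4, 38.5 and 29.8 CPM in YAL and 14.2, 20.7, 16.9 and 35.2 CPM in YCR, where a single restricted library, replicate 4, reached the ad libitum level. Gimap8, which carries several GTP-binding domains, ran from 50.9 to 59.6 CPM among the OAL libraries, from 30.2 to 51.2 CPM under lifelong CR and from 50.0 to 70.8 CPM after refeeding. In the young it ran from 68.1 to 126 CPM in YAL, from 55.6 to 59.0 CPM in YCR and from 57.3 to 83.6 CPM in YCRRF. The OAL and OCR ranges of Gimap8 met only at their edges. Gimap9 hardly varied among the old mice, with ranges of 35.6 to 39.8 CPM (OAL), 32.4 to 38.7 CPM (OCR) and 36.9 to 40.7 CPM (OCRRF), and was 54.7 to 70.1 CPM in YAL against 37.3 to 48.3 CPM in YCR. Gimap7 never exceeded 1.73 CPM in the old mice and ran from 0.843 to 8.05 CPM in the young, with all groups of the same age overlapping.

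**Figure D1:**
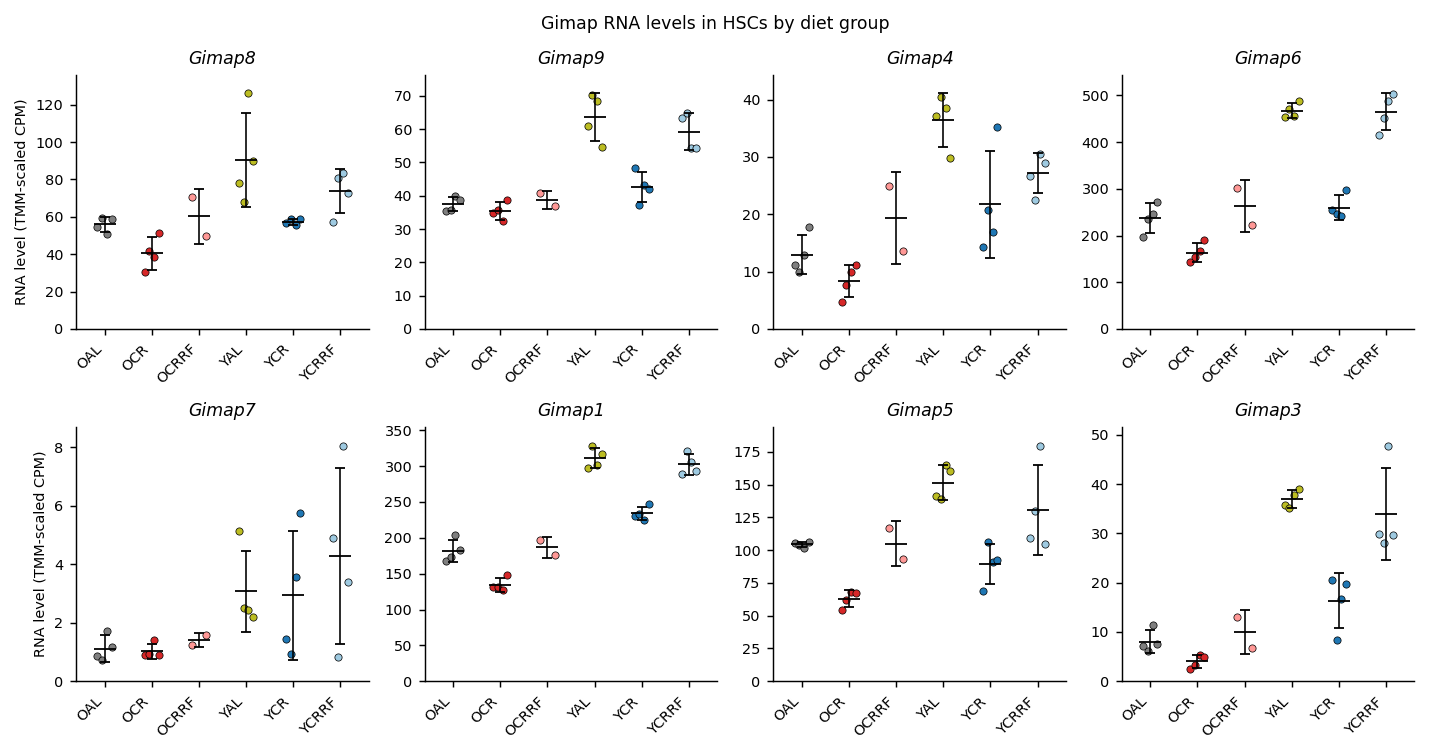
RNA level of each member (vertical axis, TMM-scaled CPM from 0) by diet group (horizontal axis), with 1 point per library and the mean with its SD as bars; each panel has its own scale. Gimap6, Gimap1, Gimap5 and Gimap3 show OCR below OAL and YCR below YAL without overlap, Gimap9 shows no separation among the old groups, and Gimap7 spreads widely at a low level.

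Summed over the 8 members, the level was 578, 625, 669 and 684 CPM in OAL, 402, 437, 449.6 and 514 CPM in OCR and 768 and 602 CPM in OCRRF. It was 1110.0, 1155, 1196 and 1179 CPM in YAL, 695, 711, 693 and 799 CPM in YCR and 996, 1100.0, 1199 and 1091 CPM in YCRRF. Ordered by mean, the groups ran YAL, YCRRF, YCR, OCRRF, OAL and OCR. The neighbours in this order that did not overlap were YCRRF and YCR, and OAL and OCR; YAL and YCRRF, YCR and OCRRF, and OCRRF and OAL overlapped. The same place at the bottom was held by OCR for all 8 members, and YAL was at the top for 7 of 8, all but Gimap7.

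The members were then set side by side as log2 fold changes from edgeR, where a gene was called if its adjusted p was below 0.05 over all genes tested and its fold change was above 1.2. All 8 passed the filter on low counts in every comparison. In OCR against OAL all 8 members were below 0, with a median of -0.49 beside 0.02 over all genes, and 5 of 8 were called lower, beside 5.57% of the 27150 genes tested (3.03% lower, 2.54% higher). Those 5 were Gimap3 at -0.97 ± 0.22 (SE), Gimap5 at -0.71 ± 0.08, Gimap6 at -0.52 ± 0.10, Gimap8 at -0.45 ± 0.12 and Gimap1 at -0.42 ± 0.08. Gimap4 at -0.62 ± 0.20, Gimap7 at -0.10 ± 0.35 and Gimap9 at -0.06 ± 0.10 were not called. The range of OCR lay wholly below that of OAL for Gimap6, Gimap1, Gimap5 and Gimap3, beside 7.13% of all genes. With all diet groups in 1 fit, 3 were called, without Gimap3 and Gimap8. Since the members were picked on this contrast, nothing is read from these counts.

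In YCR against YAL all 8 members were again below 0, with a median of -0.67 beside 0.01 over all genes, and 1 of 8 was called lower, beside 0.257% of the 18680 genes tested (0.193% lower, 0.0642% higher). That was Gimap6 at -0.82 ± 0.08. Gimap3 at -1.15 ± 0.26, Gimap5 at -0.74 ± 0.14, Gimap4 at -0.71 ± 0.27, Gimap8 at -0.63 ± 0.17, Gimap9 at -0.55 ± 0.14 and Gimap1 at -0.39 ± 0.07 were not called. The ranges did not overlap for 6 of 8 members (all but Gimap4 and Gimap7), beside 3.84% of all genes in this direction. Few genes were called in this comparison by edgeR, 48 in all. From the same counts DESeq2 called 6 members, beside 454 of the 18680 genes. Gimap9 was -0.55 in the young mice and -0.06 in the old; whether the response differed by age was not tested.

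In OCRRF against OCR all 8 were above 0, with a median of 0.58 beside 0.11 over all genes, and 6 were called higher, beside 3.41% of the 32577 genes tested (0.694% higher, 2.71% lower). Gimap3 stood at 1.25 ± 0.26, Gimap4 at 1.17 ± 0.22, Gimap5 at 0.68 ± 0.12, Gimap6 at 0.63 ± 0.13, Gimap8 at 0.53 ± 0.15 and Gimap1 at 0.42 ± 0.12. Gimap7 at 0.38 ± 0.42 and Gimap9 at 0.07 ± 0.13 were not called, and Gimap9 was below the median of all genes. DESeq2 called 4 of the 6, without Gimap4 and Gimap8, beside 2352 of all genes (190 higher, 2162 lower). With all diet groups in 1 edgeR fit 1 member was called, Gimap6. OCRRF replicate 1 decided this count: without it no member was called, and Gimap3 stood at 0.65, Gimap4 at 0.61, Gimap5 at 0.46, Gimap6 at 0.35, Gimap1 at 0.30 and Gimap8 at 0.21. The median of all genes in this comparison moved from 0.11 to 0.24 when TMM factors were taken from genes of at least 5 CPM, and the split of all called genes moved from 226 higher and 884 lower to 341 and 573. OCR against OAL split 689 higher and 822 lower, and 894 and 698 under that scaling.

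In YCRRF against YCR all 8 members were above 0, with a median of 0.49 beside 0.02 over all genes. None was called, beside 0.0102% of the 19535 genes tested. By edgeR 5 of 8 members had an unadjusted p below 0.05, beside 1420 of the 19535 genes. DESeq2 called 1 member, Gimap6, beside 280 of all genes. Gimap6 stood at 0.82 ± 0.12, Gimap3 at 1.03 ± 0.31 and Gimap1 at 0.35 ± 0.10, and the ranges of these 3 and of Gimap9 did not overlap, beside 2.99% of all genes. In OCRRF against OAL the members lay between -0.00054 (Gimap5) and 0.57 (Gimap4), and in YCRRF against YAL between -0.41 (Gimap4) and 0.50 (Gimap7). No member was called in either, beside 4.14% and 0% of all genes. By edgeR 1 and 0 members had an unadjusted p below 0.05, beside 8564 of 31816 and 714 of 19334 genes. DESeq2 called 0 members in both, beside 3906 and 15 genes. These comparisons share libraries with those above and are not separate evidence.

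Between the ages, OAL stood below YAL for all 8 members, with a median of -0.86 beside 0.05 over all genes, and 7 were called lower, beside 14.8% of the 23525 genes tested (7.93% lower, 6.89% higher). Gimap3 had the largest difference at -2.18 ± 0.20, with means of 8.04 CPM in OAL and 37.0 CPM in YAL, followed by Gimap4 at -1.47 ± 0.19. Gimap7 at -1.43 ± 0.45 was not called. Gimap5 at -0.52 ± 0.08 had the smallest difference. The number of genes detected also differed between the ages, as given above, and its part in these differences was not tested. Under TMM factors from genes of at least 5 CPM the median of all genes moved to 0.16 and the split of all called genes from 1620 higher and 1866 lower to 1872 and 784.

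**Figure D2:**
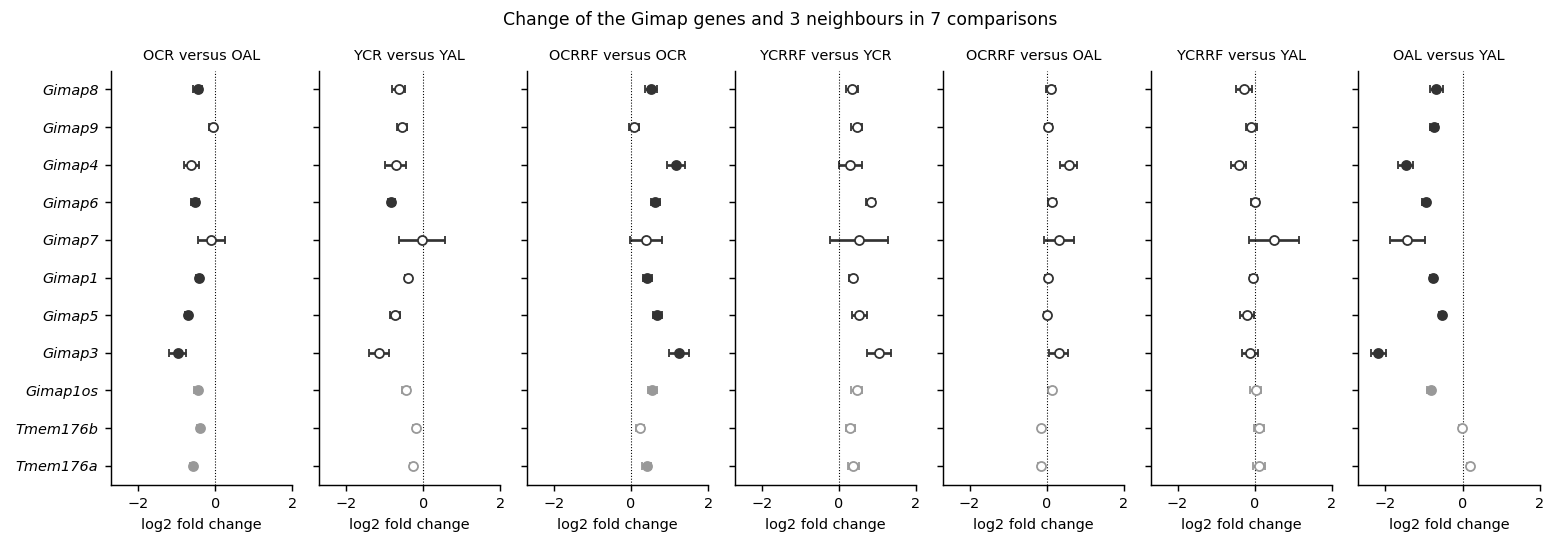
log2 fold change of the 8 members (black) and of Gimap1os, Tmem176b and Tmem176a (grey) in 7 diet comparisons (horizontal axes), with SE as bars and filled points for called genes. All members lie left of 0 in OCR versus OAL, YCR versus YAL and OAL versus YAL, right of 0 in both comparisons of refed with restricted mice, and between -0.41 and 0.57, both Gimap4, when refed mice are set beside ad libitum mice.

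The members moved together across libraries, and mostly by group. Over the 22 diet libraries the 28 pairs of members had Pearson correlations of log2 CPM between 0.41 and 0.96, with a median of 0.83. With each library set relative to its group mean, the same pairs ran from -0.33 to 0.75, with a median of 0.32. The libraries differ in depth and in genes detected, so these are descriptions. The 12327 genes of at least 5 CPM were ranked by correlation with the mean log2 CPM of the members over the 22 libraries. The 10 genes most like this mean were Gimap3 (0.98), Gimap6 (0.96), Gimap1 (0.96), Gimap1os (0.95), Gimap4 (0.95), Socs2 (0.94), Pdgfc (0.94), Chst7 (0.94), Shisa5 (0.92) and Il4 (0.92). The first 3 and Gimap4 are part of that mean, as are the other members, and each member counts equally in it whatever its level. Gimap9 ranked 29, Gimap8 ranked 52 and Gimap5 ranked 55. Socs2, a suppressor of cytokine signalling, averaged 11.3 CPM in OAL, 4.31 in OCR, 25.4 in OCRRF, 72.5 in YAL, 17.7 in YCR and 58.0 in YCRRF.

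Of 32 other genes in the cluster or within 200 kb of it, 21 were tested in OCR against OAL. Of these, 4 were called, all lower, beside 3.03% of all genes called lower. Gimap1os, which shares exon bases with Gimap1, and the non-coding 4833403J16Rik, between Gimap5 and Gimap3, lie within the cluster. The others were the membrane-protein genes Tmem176a (-0.58 ± 0.08) and Tmem176b (-0.40 ± 0.07), the nearer of which lies 63.0 kb from the cluster. The Tmem176 pair did not follow the age difference, at 0.19 ± 0.07 and -0.03 ± 0.06 in OAL against YAL, where Gimap1os stood at -0.83 ± 0.09.

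Of 10 genes whose products are linked to GIMAP proteins (Bcl-2 family members, Gsk3b and the GABARAP family), 1 was called lower in OCR against OAL, beside 3.03% of all genes. This was Gabarapl1, an autophagosome protein, with means of 219.1 CPM in OCR and 294.2 CPM in OAL (-0.41 ± 0.08). Bcl2, the survival factor, was called lower in OCRRF against OCR (-0.53 ± 0.12), beside 2.71% of all genes. It was called higher in OAL against YAL (0.43 ± 0.08), beside 6.89% of all genes. By edgeR no other call was made among the 10 in the diet comparisons or the knockdowns. Spi1, which encodes PU.1, averaged 53.5 CPM in OAL, 57.7 CPM in OCR and 48.7 CPM in OCRRF and was not called between these groups.

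Lymphocytes and endothelial cells also express Gimap genes, so their markers were read beside the members. The 8 T cell markers summed to 15.0 to 17.6 CPM in OAL and 13.5 to 20.3 CPM in OCR, and to 7.19 to 26.3 CPM in YAL and 7.81 to 33.5 CPM in YCR, overlapping in both. Most of the sum was Lck, at 2.37 to 21.0 CPM, while Cd3d stayed under 1 CPM in all 22 diet libraries and was at 0 in 6, and Cd3e was under 1 CPM in 20 and at 0 in 8. The 7 B cell markers summed to 37.9 to 43.0 CPM in OAL and 36.4 to 44.3 CPM in OCR. In OCRRF they summed to 46.2 and 47.8 CPM, and Pax5, a B-lineage transcription factor, was called higher than in OCR. Their sums were higher in the young mice, at 62.8 to 122.9 CPM in YAL, 50.3 to 128.6 CPM in YCR and 44.2 to 62.4 CPM in YCRRF. Between the ages, 4 of the 7 were called lower in OAL than in YAL, as most members were, beside 7.93% of all genes. Cd34, Flt3 and Cd48 were also called lower there, and Il7r higher. The 6 NK cell markers summed to 58.8 to 69.6 CPM in OAL, 40.6 to 52.9 CPM in OCR and 47.7 and 67.8 CPM in OCRRF. As a list they did not move with the members: of 4 tested in OCR against OAL, 2 were above 0 and 2 below. Klrb1c was called lower in OCR than in OAL and higher in OCRRF than in OCR. Nkg7 was called in the opposite direction in both. Ncr1 was at 0 in 9 of 22 libraries and never reached 1 CPM. In the young mice the median of the NK list was higher under restriction, at 27.5 CPM in YAL and 47.8 CPM in YCR. The 4 erythroid markers summed to 24.6 to 174.8 CPM in OAL and 18.3 to 45.7 CPM in OCR, with Hba-a1 and Hbb-bs called lower, and the 6 endothelial markers to 44.2 to 67.9 CPM and 49.9 to 98.9 CPM. The part of these cells in the member levels was not tested.

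The family was chosen on the behaviour of its members under restriction, and the knockdown libraries were not used in that choice. Earlier results of these data were known when it was made. The targets came first. Kdr stood at 1.93 to 3.28 CPM in the 4 Kdr knockdown libraries and at 6.04 and 6.07 CPM in the scramble (-1.35 ± 0.25, adjusted p = 0.247 by edgeR), and at 0.555 to 1.60 CPM in the double knockdown beside 3.97 and 4.62 CPM (-1.86 ± 0.37, adjusted p = 0.272 by edgeR). Bmpr1a stood at 4.44 and 0.656 CPM with the first hairpin and 2.22 and 0.595 CPM with the second, beside 5.21 and 4.43 CPM in the double scramble (-1.29 ± 0.72, adjusted p = 0.602 by edgeR). Both replicates numbered 1 were the higher ones, and the first of them lay between the scramble libraries.

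No member was called in the Kdr knockdown, beside 0.0149% of the 20098 genes tested. By edgeR 3 of 8 members had an unadjusted p below 0.05, beside 1789 of the 20098 genes. DESeq2 called 1 member, Gimap4, beside 303 of all genes. Gimap6 was 290.2, 342, 304 and 294 CPM beside 278 and 308 CPM in the scramble, a log2 difference of 0.07 with a 95% interval of -0.13 to 0.27. Gimap5 was 81.4, 70.9, 89.0 and 77.5 CPM beside 81.0 and 91.8 CPM, a difference of -0.12 with an interval of -0.35 to 0.12. Both groups overlapped for these genes.

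Gimap4 was 17.1, 22.9, 18.0 and 23.4 CPM beside 31.5 and 36.9 CPM, with no overlap, in a comparison in which 11.3% of all genes were lower without overlap. The difference was -0.75 ± 0.15 with an adjusted p of 0.26 by edgeR. Gimap7 was 8.32, 4.86, 5.24 and 9.63 CPM beside 3.44 and 4.13 CPM, higher in all 4 libraries, beside 10.6% of all genes that were higher without overlap, with a difference of 0.89 ± 0.31 and an adjusted p of 0.475 by edgeR. Gimap9 was higher in all 4 libraries as well (0.23 ± 0.10, adjusted p = 0.555 by edgeR). Gimap3 was 5.17, 7.46, 6.22 and 16.4 CPM beside 15.0 and 7.76 CPM, so that the replicates of each group spread more than the groups differed.

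In the double knockdown no member was called either, beside 0.00498% of the 20072 genes tested. By edgeR 2 of 8 members had an unadjusted p below 0.05, beside 1977 of the 20072 genes. DESeq2 called 1 member, Gimap7, beside 332 of all genes. Gimap7 was 6.21 and 10.4 CPM with the first Bmpr1a hairpin and 10.7 and 11.8 CPM with the second, beside 4.32 and 4.01 CPM in the double scramble. All 4 libraries were above both scramble libraries, beside 10.5% of all genes that were higher without overlap, with a difference of 1.23 ± 0.28 and an adjusted p of 0.287 by edgeR. Gimap1 was also above both in all 4 libraries (0.22 ± 0.06, adjusted p = 0.321 by edgeR). Gimap6 differed by 0.04 with an interval of -0.17 to 0.25, and Gimap5 by -0.12 with an interval of -0.32 to 0.08.

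The hairpins against Bmpr1a did not give like values for the low members. Gimap4 was 6.63 and 3.03 CPM with the first hairpin and 16.1 and 19.8 CPM with the second, on either side of 14.2 and 13.9 CPM in the double scramble. Gimap3 was 1.97 and 3.91 CPM with the first and 9.13 and 22.2 CPM with the second, beside 4.03 and 6.17 CPM. The difference between the hairpins was not tested, with 2 libraries each. For the double knockdown against the single one, each taken relative to its own scramble, no member and no gene was called (0% of 21250 genes by edgeR, with 760 genes and 0 members at an unadjusted p below 0.05; DESeq2 called 3 genes and 0 members). Gimap7 differed by 0.34 ± 0.43 and Gimap6 by -0.03 ± 0.13, each with an adjusted p of 0.9999 by edgeR.

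Summed over the 8 members, the level was 764 and 827 CPM in the scramble and 786, 874, 837 and 804 CPM in the Kdr knockdown. It was 669 and 654 CPM in the double scramble and 640.5 and 694 CPM and 767 and 741 CPM with the 2 double hairpin pairs. By their means, the 2 scrambles (795.6 and 661.8 CPM) were further apart than the Kdr knockdown (825.5 CPM) was from its scramble. The T cell markers summed to 12.2 to 18.7 CPM in all transplant libraries, almost wholly as Lck (11.8 to 17.3 CPM), with Cd3e at 0 in 9 of 12 libraries and Cd3g at 0 in 11.

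**Figure D3:**
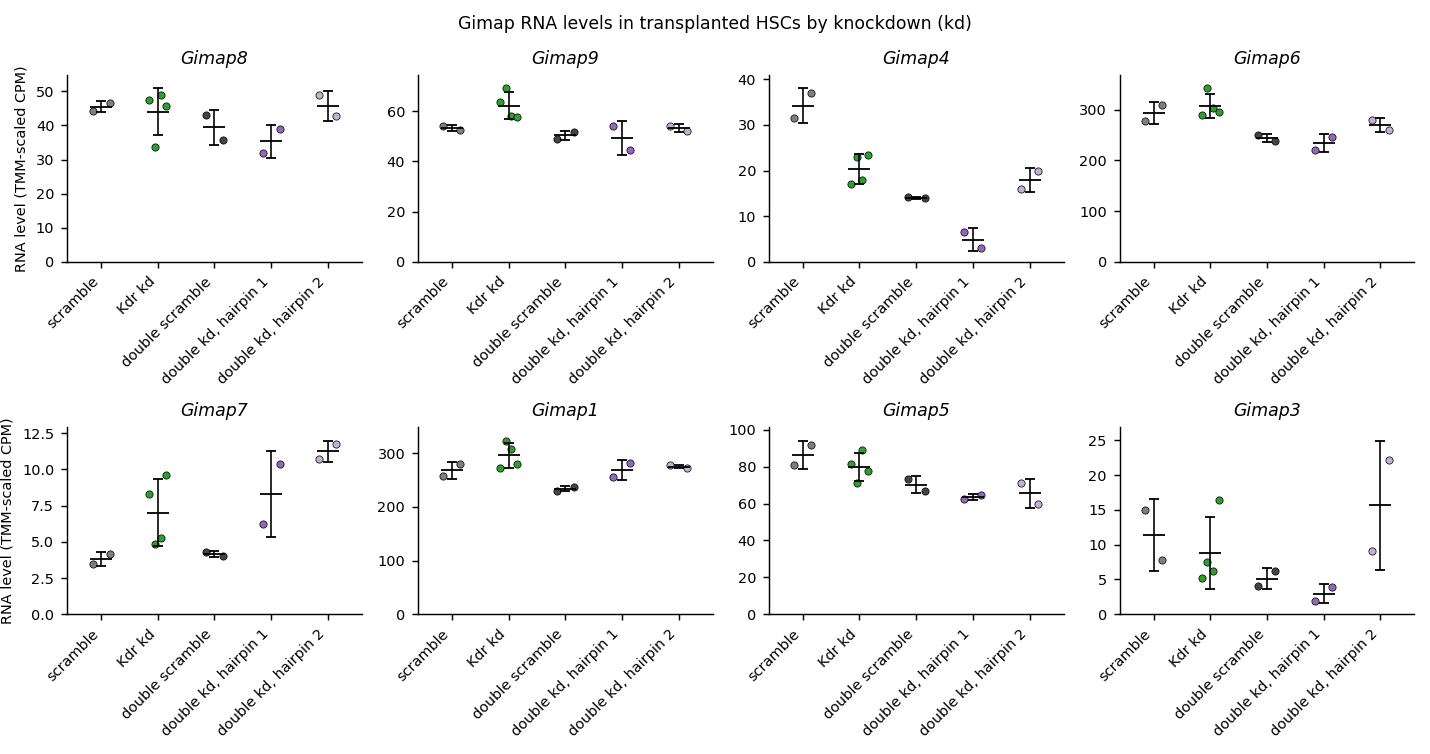
RNA level of each member (vertical axis, TMM-scaled CPM from 0) in HSCs from recipients, by hairpin group (horizontal axis), with 1 point per library and the mean with its SD as bars; each panel has its own scale. Gimap6, Gimap1, Gimap5 and Gimap9 stay within narrow bands, Gimap4 is lower in the Kdr knockdown than in its scramble, Gimap7 is higher in both knockdowns than in their scrambles, and Gimap4 and Gimap3 lie on different sides for the 2 double hairpin pairs; no member was called by edgeR, and DESeq2 called Gimap4 in the Kdr knockdown and Gimap7 in the double knockdown.

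The chromatin of the cluster was read in OCR first. H3K4me3, a mark of active promoters, was given as the mean signal per base over the 750 bases after each start site. It was 32.5 and 33.2 at Gimap1, 28.1 and 25.5 at Gimap6, 23.9 and 21.1 at Gimap5, 23.0 and 20.8 at Gimap9 and, at the first start of Gimap8, 18.0 and 17.1 in the 2 libraries. All 5 were above the medians of 31552 promoters, 10.2 and 9.64. Gimap4 (3.34 and 3.42), Gimap3 (0.847 and 1.37) and Gimap7 (0.602 and 0.956) were below them. The order of the members by H3K4me3 nearly followed their RNA level per kb in OCR (Spearman's rho 0.95 over the 8 members, as a description): the least abundant 3, Gimap4, Gimap3 and Gimap7, also held the 3 lowest places for the mark. H3K27me3, a repressive mark, was measured over 2000 bases and was low at every member, with means of 0.176 at Gimap5 to 0.259 at Gimap7, all below the medians of 0.312 and 0.316, so that low H3K4me3 at Gimap3 and Gimap7 did not come with high H3K27me3. Histone marks of OAL and OCRRF were not analysed here.

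**Figure D4:**
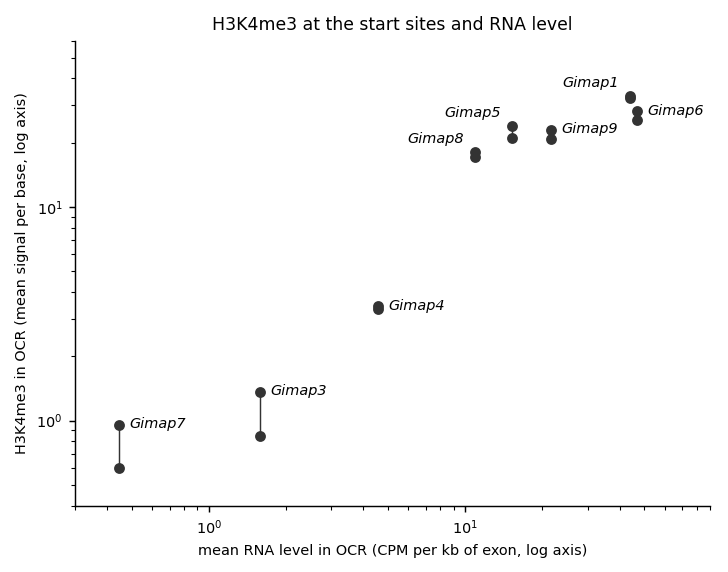
H3K4me3 at the start sites of the members in OCR (vertical axis, mean signal per base, log axis) beside their mean RNA level in OCR (horizontal axis, CPM per kb of exon, log axis), with 1 point per ChIP library joined by a line. Gimap1 and Gimap6 stand at the top of both, Gimap4, Gimap3 and Gimap7 at the bottom of both.

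ATAC-seq counted 20 consensus peaks over the cluster and 10 kb on either side, of 131918 in all. In OCR the strongest by far lay at the start of Gimap5 (chr6:48745815-48747394), with 25.8, 27.8, 27.0 and 28.6 CPM in the 4 OCR libraries, followed by that at the start of Gimap1 with 10.0, 8.93, 9.18 and 9.15 CPM. The start of Gimap6, the most abundant member, had only 3.16, 3.61, 4.36 and 2.79 CPM, and no consensus peak lay at the start of Gimap3, where the nearest was 1032 bases away. The order of the start-site peaks did not follow that of the RNA levels per kb.

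In OCRRF against OCR none of the 20 peaks was called (adjusted p below 0.05, fold change above 1.5 and mean log2 CPM above 1.5 by edgeR), beside 0.221% of the 123372 peaks tested. DESeq2 called none of them either, beside 182 of all peaks. By edgeR 5 of the 20 had an unadjusted p below 0.05, beside 14437 of the 123372 peaks tested. Of the 20, 16 were above 0, with a median of 0.17 beside -0.01 over all peaks. The ranges of OCR and OCRRF did not overlap for 3, all higher in OCRRF, beside 10.3% of all peaks in that direction. One was the Gimap5 promoter, at 35.8 and 29.4 CPM in OCRRF (0.26 ± 0.09, adjusted p = 0.226 by edgeR). Another lay between Gimap4 and Gimap6 (chr6:48700021-48700794), at 8.02, 7.71, 9.29 and 8.51 CPM in OCR and 12.6 and 10.0 CPM in OCRRF (0.43 ± 0.15, adjusted p = 0.218 by edgeR). The third lay in the body of Gimap6 (chr6:48705941-48706541), at 1.30, 1.29, 0.793 and 1.33 CPM and 2.09 and 1.75 CPM (0.70 ± 0.34, adjusted p = 0.413 by edgeR). In each of these OCRRF replicate 1 was the higher of the 2 libraries. The promoters of Gimap6 and Gimap1, whose RNA differed, had 0.14 ± 0.24 and 0.05 ± 0.15, with intervals of -0.33 to 0.62 and -0.26 to 0.36.

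PU.1, an ETS factor that directs myeloid and lymphoid fates, had peaks at 4 sites of the cluster. The most constant was at the start of Gimap6 (chr6:48708091-48708382), called in 6 of 6 libraries with a fold enrichment over background of 7.00 and 6.61 in OAL, 10.6 and 7.58 in OCR and 6.86 and 6.33 in OCRRF. Both OCR values were above the 4 others, and the OAL and OCRRF values overlapped. The second site lay 7587 bases from the start of Gimap6, beyond its 3′ end and toward Gimap4 (chr6:48700126-48700638), within the ATAC peak that was higher in both OCRRF libraries. It was called in 5 of 6 libraries, all but OCRRF replicate 1, with fold enrichments of 5.25 and 7.79 in OAL, 5.85 and 8.93 in OCR and 7.14 in OCRRF replicate 2. A weak peak at the start of Gimap1 (chr6:48738867-48739123) was called in 1 OAL and 1 OCR library at 5.85 and 5.32, and another site (chr6:48699022-48699290) in 1 OCR library at 7.98. At q below 1e-05 the Gimap6 site remained in 6 libraries, the second in 3 and the Gimap1 site in 0. No PU.1 peak lay at the starts of the other 6 members. The libraries held 2262 to 5464 peaks in all, peaks were called in each library alone, and the 2 libraries of a group may differ in antibody, so presence is given with no test.

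The second site is shown because it was the only open region between genes that held both a PU.1 peak in most libraries and accessibility without overlap between the groups. Its 201 bases centred on the median summit, from the mm10 plus strand with AGGAA and TTCCT in capitals, were as follows.
PU.1 site between Gimap4 and Gimap6, chr6:48700292-48700492: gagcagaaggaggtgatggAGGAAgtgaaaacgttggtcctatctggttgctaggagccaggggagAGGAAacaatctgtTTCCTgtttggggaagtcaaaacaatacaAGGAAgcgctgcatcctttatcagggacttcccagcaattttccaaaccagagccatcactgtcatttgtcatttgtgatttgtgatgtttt
This window held 4 matches of AGGAA, 2 of them within GAGGAA. The window at the Gimap6 start held 2 matches of AGGAA and 0 of GAGGAA; 1 of the 2 is the TTCCT nearest the start in the Gimap6 sequence printed above. Of 19709 PU.1 peak windows of this length, 86.1% held AGGAA and 63.2% GAGGAA.

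**Figure D5:**
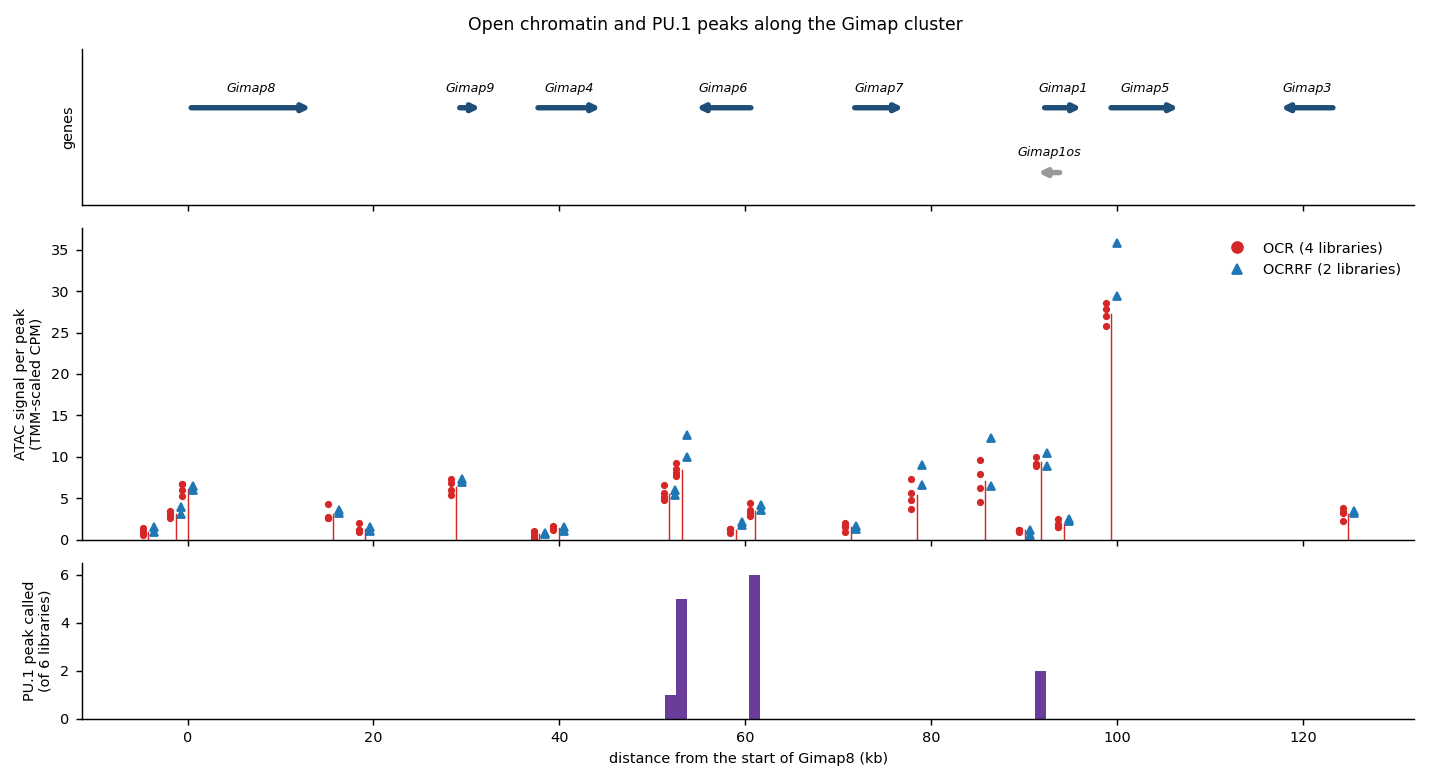
The cluster by distance from the start of Gimap8 (horizontal axis, kb), with genes and their direction above, ATAC signal of each consensus peak in the middle (TMM-scaled CPM, circles for 4 OCR and triangles for 2 OCRRF libraries, line at the OCR mean, points set off sideways) and the number of libraries with a PU.1 peak below. The Gimap5 start carries the strongest ATAC peak, and the PU.1 peak called in 6 of 6 libraries is at the Gimap6 start.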

How the data were processed

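RNA-seq, ATAC-seq and ChIP-seq of HSCs sorted from bone marrow were taken as deposited. For RNA-seq, the authors aligned trimmed reads (trim galore, cutadapt) against mm10 by STAR and deposited raw counts per gene from featureCounts on a GENCODE annotation; strand and multi-mapping settings are not given in the sources used here. ATAC-seq counts per consensus peak were deposited by the authors. For ChIP-seq the authors mapped reads with BWA and removed duplicates. The deposited histone tables hold the signal that the authors summed over a window after each RefSeq start. It was divided here by the window length, and although the study normalised its histone libraries to equal read numbers, whether these tables come from the normalised libraries is not given in the sources used here. The deposited PU.1 peaks, called with MACS2 per library, hold a score, a fold enrichment ratio, and −log10 p and q values.

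Counts were tested with edgeR 4.0.16 (R 4.3.3; TMM, filterByExpr, quasi-likelihood test, Benjamini-Hochberg adjustment over all features), each comparison on its own groups. A gene was called at an adjusted p under 0.05 with a 1.2-fold change, and an ATAC peak with a 1.5-fold change where its mean log2 CPM exceeded 1.5. DESeq2 1.42.0, other scalings and filters, 1 fit over all groups, the replicate number as a block and leaving out each library were tried as alternatives. The fits were tested on simulated data. Gene models came from a GENCODE annotation of mm10 (release M21) and promoters from RefSeq. Correlations used log2 CPM with a prior count of 2. The members and all gene lists were chosen with earlier results of these data known. The genes named were the members, other symbols starting with Gimap, genes within 200 kb, the marker and Gimap-linked lists, and the 10 genes of at least 5 CPM with the highest correlation with the family; Spi1 was read beside the PU.1 peaks. Granulocyte and monocyte markers summed to 390.8 to 1606 CPM in the diet libraries, and the 4 genes that the HSC gate excludes or that mark lymphoid progenitors (Cd34, Flt3, Cd48 and Il7r) to 119.1 to 254.0 CPM. The values of 1 gene of the B cell list are not reported singly here. Pairing by replicate number was checked, was not found for all pairs of any comparison, and was not used in the main fits. Intervals are 95% intervals of the fits.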

Additional observations from a re-analysis of the deposited data

Results flagged for a closer look

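Of 83 groups of 4 values, 7 held a library far from the other 3 (by Dixon's test on the gap to the nearest library), where chance gives about 1 in 20. Gimap7 in OCR replicate 3 stood at 1.42 CPM beside 0.886 to 0.919 CPM, and in YAL replicate 1 at 5.14 CPM beside 2.20 to 2.52 CPM. Gimap1 in OCR replicate 4 stood at 148.6 CPM beside 127.8 to 131.1 CPM. Gimap3 in YCRRF replicate 3, the library that stands apart from its group over all genes, was at 47.8 CPM beside 28.1 to 29.9 CPM. The sum of the 8 members in YCR replicate 4 was 799.4 CPM beside 693.1 to 710.9 CPM. Among ATAC peaks in OCR, that at chr6:48662639-48663150 was at 4.25 CPM in replicate 4 beside 2.56 to 2.78 CPM. The peak in the body of Gimap6 was at 0.793 CPM in replicate 3 beside 1.29 to 1.33 CPM, and it is 1 of the 3 whose OCR and OCRRF ranges did not overlap.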

How the results depend on the processing

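The replicate numbers were not taken to pair the libraries, as in no comparison did every same-numbered pair have deviations correlated over 0.1. In OCR against OAL 2 of 4 such pairs did, both at 0.145, so that the check cannot exclude a partial pairing there. With the replicate number as a block 6 members were called in OCR against OAL, 1 in YCR against YAL, 6 in OCRRF against OCR, 7 in OAL against YAL, 1 in OCRRF against OAL and 0 in the knockdowns. With all groups in 1 fit, 3 members were called in OCR against OAL, 4 in YCR against YAL, 1 in OCRRF against OCR and 3 in YCRRF against YCR. With DESeq2, 4 rather than 6 were called in OCRRF against OCR, 8 rather than 7 in OAL against YAL, 6 in YCR against YAL and 1 each in YCRRF against YCR and both knockdowns. Over all genes DESeq2 called 2352 rather than 1110 in OCRRF against OCR and 4754 rather than 3486 in OAL against YAL. In YCR against YAL it called 454 genes rather than 48. With no filter on low counts, 5 were called in YCR against YAL and 1 each in OCRRF against OAL, YCRRF against YCR and the Kdr knockdown (Gimap4), and with at least 10 counts in every library 3 in YCR against YAL. Leaving out 1 library at a time gave 4 to 6 calls in OCR against OAL, 0 to 6 in OCRRF against OCR (0 without OCRRF replicate 1), 0 to 1 in YCRRF against YCR (1 without YCRRF replicate 3) and 6 to 8 in OAL against YAL. No called member changed its sign under any alternative run. The ATAC peak at chr6:48732608-48733512 went from 0.42 to -0.12 without OCRRF replicate 1, the lowest of its values with 1 library left out, the highest being 0.81 without OCRRF replicate 2. The causes were not tested. With 2 libraries in OCRRF and in each scramble, these comparisons have the least precision.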
